A study of Homo sapiens with 6 samples.

Results

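The zinc finger genes of chromosome 19 were taken as the rows of the deposited gene count table that lie on chromosome 19 and have a symbol made of ZNF, a number and at most 1 further letter. ZNF473 was left out, and a row had to have at least 10 counts in 3 or more of the 6 libraries. This gave 232 members among 264 such rows of the chromosome, in a table of 62754 rows. Of the 32 rows under the count limit, 2 had no count in any library and the highest total was 47 counts. Among the members, 227 reached 10 counts in all 6 libraries, and in no member were all libraries of 1 group under 10 counts.

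Most of these genes encode KRAB zinc finger proteins. In such a protein an array of zinc fingers reads a DNA sequence, and the KRAB domain recruits the corepressor TRIM28, which brings the histone methyltransferase SETDB1, heterochromatin proteins and histone deacetylases to the bound site. The family is best known for silencing transposable elements, and its genes sit in tandem clusters that grew by repeated duplication, so that neighbours are often close copies of each other.

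The libraries came from HK-2 cells, an immortalized line of human proximal tubular epithelium, and were made to ask which transcripts depend on NAT10, an acetyltransferase of RNA and protein, during Cisplatin injury. Both groups received Cisplatin, and the labels give no dose, no time and no untreated cells. The siNC group was transfected with negative control siRNA and the siNAT10 group with NAT10 siRNA, with 3 libraries each of stranded mRNA. The total counts were 19321665, 21602988 and 19464027 in siNC and 20793709, 21531774 and 25192736 in siNAT10. The labels number the samples of a group 1 to 3 without saying that they are separate cultures, so the p-values measure the spread between these libraries, which may be technical.

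The epithelial markers were abundant, with KRT8 at a mean of 1452 CPM (counts relative to the scaled library size), KRT18 at 308 CPM and KRT19 at 177 CPM, whereas CDH1 was at 0.0476 CPM. The epithelial sum was 1999, 2016 and 1964 CPM in siNC and 1917, 1897 and 1931 CPM in siNAT10, with KRT18 lower (log2 fold change -0.36, edgeR adjusted p = 3.79e-10) and EPCAM higher (0.31, adjusted p = 0.000902). Of 8 proximal tubule markers, GGT1 and SLC5A2 reached 1 CPM, and the summed list was 44.5, 44.5 and 42.9 CPM in siNC and 41.8, 38.4 and 41.1 CPM in siNAT10. The pair went opposite ways, with log2 fold changes of -0.28 ± 0.05 for GGT1 and 0.31 ± 0.09 for SLC5A2 (edgeR adjusted p = 9.92e-05 and 0.00363). LRP2, CUBN, SLC34A1, ANPEP and AQP1 were below 1 CPM and SLC22A6 had no count, so most of these 8 markers were nearly absent. Among markers of other cell types, the endothelial genes PECAM1, VWF and CDH5 were all under 0.2 CPM on average. The fibroblast genes DCN and PDGFRB were at 0.0232 and 0.243 CPM. The summed leukocyte list was 208, 198 and 216 CPM in siNC and 288, 265 and 268 CPM in siNAT10. Nearly all of it was CD68, a lysosomal protein also made outside leukocytes, while PTPRC stood at 0.621 CPM and CD3E at 0.292 CPM. CD68 and PTPRC were both higher, by log2 fold changes of 0.40 ± 0.04 and 0.96 ± 0.38 (edgeR adjusted p = 7.97e-10 and 0.0411). PTPRC was at 0.425, 0.467 and 0.363 CPM in siNC and at 0.475, 1.33 and 0.671 CPM in siNAT10, so that its step leaned on siNAT10 replicate 2. The fibroblast sum, carried by COL1A1, was 10.8, 11.5 and 10.3 CPM in siNC and 13.0, 15.5 and 12.9 CPM in siNAT10, with COL1A1 higher by 0.38 ± 0.09 in log2 (edgeR adjusted p = 0.000622). PDGFRB went the other way at a very low level, from 0.372, 0.374 and 0.312 CPM in siNC to 0.190, 0.0915 and 0.118 CPM in siNAT10. The part of these markers in the results below was not tested.

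NAT10 itself was at 75.8, 71.4 and 73.2 CPM in the siNC libraries and at 41.3, 40.5 and 42.4 CPM in the siNAT10 libraries. All siNAT10 libraries were below all siNC libraries, as their labels say. The log2 fold change of siNAT10 against siNC was -0.82 ± 0.04 (SE), with an adjusted p of 2.79e-15 in edgeR's quasi-likelihood test, Benjamini-Hochberg adjusted over 19874 tested genes.

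Together the members held a small part of the counts, 0.315%, 0.316% and 0.320% in the siNC libraries and 0.365%, 0.359% and 0.357% in the siNAT10 libraries. Each siNAT10 library gave the zinc finger genes a larger share than each siNC library. The members were weakly expressed for their length, with a median of 1.96 RPKM (CPM per kilobase of gene length) against 3.03 RPKM over all tested genes, and they ran from 0.0723 to 48.1 RPKM. All 232 members passed the filter on low counts and were tested.

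With NAT10 silenced, 78 members were higher and 19 were lower at an adjusted p under 0.05 (edgeR), and 135 were not called. Over all tested genes 21.8% were called higher and 22.3% lower, while 33.6% of the members were higher and 8.19% lower. The rises thus made up 80.4% of the members called, where rises and falls were nearly balanced over the whole table. The median log2 fold change of the members was 0.14, against 0.0070 over all tested genes, and 72.0% of the members had a positive value against 51.0% of all genes.

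The changes were small in size. No member joined an adjusted p under 0.05 with a change of more than 1 in log2, limits that 2.33% of all tested genes passed, and the same count of 0 came from edgeR at an unadjusted p under 0.05 and from DESeq2 and limma-voom. Leaving out siNC replicate 3 let 1 member through, ZNF665, at a log2 fold change of 1.16 ± 0.46 (SE, edgeR adjusted p = 0.0429) against 0.56 ± 0.39 with all libraries, and this gene was looked up after the values were seen. The fold changes of the members ran from -0.70 to 0.85. Their median standard error was 0.08, close to the 0.09 of all tested genes.

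Members at 10 CPM or more and members below it had similar medians, 0.14 and 0.13, although 58 of the 125 abundant members were called higher against 20 of the 107 weaker ones. Calls were fewer at low levels over the whole table too, where 12.7% of genes under 10 CPM were higher and 13.4% lower. Zinc finger genes of the same symbol pattern on other chromosomes had 81 higher and 36 lower of 240, with a median of 0.07. Their share of rises, 33.8%, was close to the 33.6% of the members, while falls made up 15% against 8.19%. The 1206 other tested genes of chromosome 19 had 239 higher and 252 lower with a median of -0.011. Counts and medians describe these lists, and the lists were not tested against each other.

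**Figure D1:**
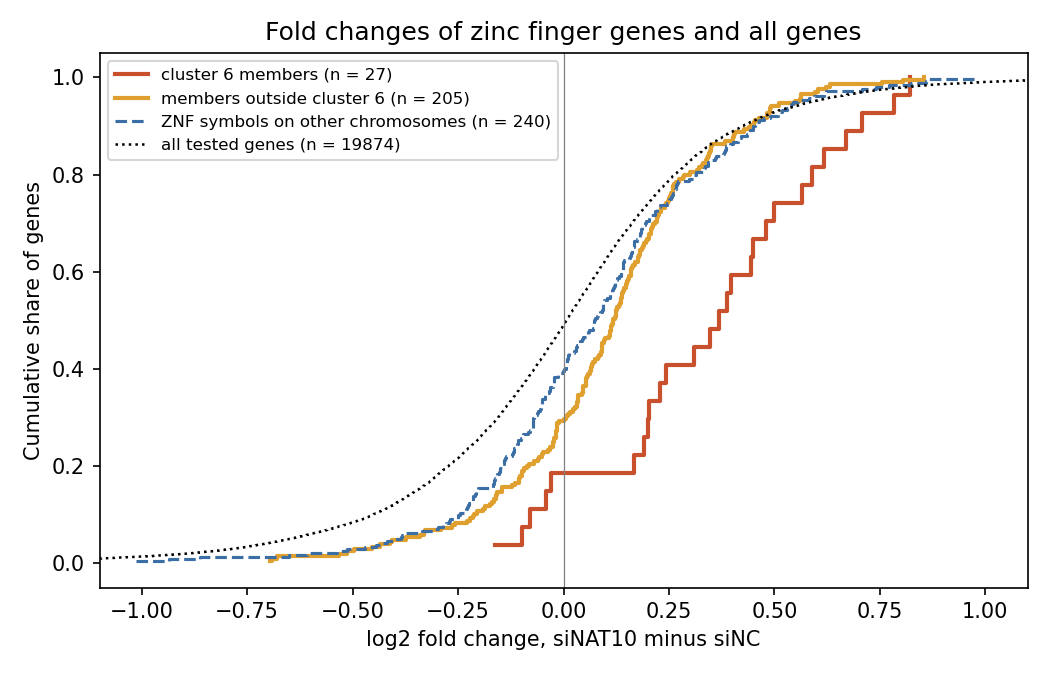
Cumulative share of genes (vertical axis) by log2 fold change of siNAT10 minus siNC (horizontal axis) for the 27 members of cluster 6, the 205 other members, 240 ZNF symbols on other chromosomes and 19874 tested genes. Over its middle the curve of cluster 6 lies to the right of the others, with a median of 0.37 against 0.12 for the other members and 0.0070 for all genes, while single genes of the other lists reach higher values.

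Along the chromosome, a gap of over 1000000 bases between neighbouring starts was used to part the 264 rows into 16 clusters, of which 14 held members and 9 held at least 5. Starts are given on GRCh38 as deposited. The rises were spread unevenly over these clusters. Cluster 6, which lies on the short arm near the centromere with starts from 19668796 to 24033405, had 19 members higher, none lower and 8 not called, and its median log2 fold change was 0.37. By median, the next among clusters of 5 or more members was cluster 15, from 51571283 to 53519527, with 18 of 39 members higher, 1 lower and a median of 0.22. Cluster 16, the largest with 61 members from 55476617 to 58474017, had 21 higher and 4 lower and a median of 0.14.

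Cluster 2, with 14 members from 7069703 to 9751993, had 6 higher and 1 lower and a median of 0.16. In cluster 10, from 36182276 to 37735833, 7 of 25 members were higher and 1 was lower. Its median of 0.12 rested partly on 1 library, since it was 0.06 without siNAT10 replicate 2. The remaining clusters of 5 or more members had smaller medians. Cluster 3, with 25 members from 11483427 to 12610918, had 3 higher and 2 lower and a median of 0.07, which became 0.11 without siNC replicate 1. Clusters 3 and 10 each had 68.0% positive values, and without 1 library their medians ran over overlapping ranges, 0.05 to 0.11 and 0.06 to 0.12. Cluster 13, with 23 members from 43596392 to 45071500, had 1 higher and 3 lower, and its median of 0.03 turned to -0.016 without siNC replicate 2 and to -0.028 without siNC replicate 3. The small clusters 1 and 9, with 5 members each, had medians of -0.018 and -0.019. Both signs are uncertain, as cluster 1 ran from -0.074 to 0.037 without 1 library and both medians became 0.019 with library sizes left unscaled.

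**Figure D2:**
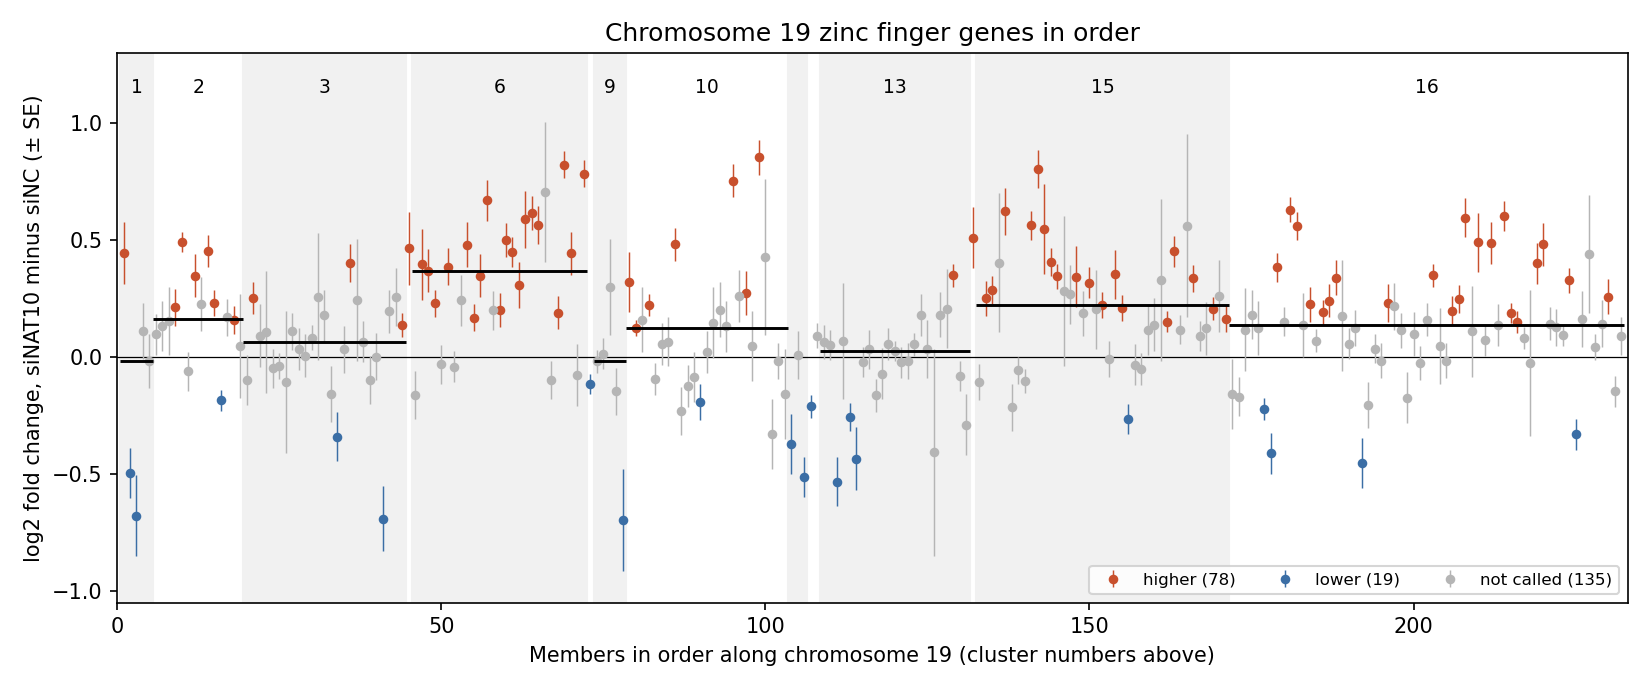
The 232 members in order of their starts along chromosome 19 (horizontal axis, bands mark clusters and numbers name those of 5 or more members), with the log2 fold change of siNAT10 minus siNC ± SE (vertical axis). Points are members called higher (78), lower (19) or not called (135), and black lines are cluster medians, with cluster 6 at 0.37 and cluster 13 at 0.03.

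The cluster medians were also taken in each library. For each member the log2 CPM was set against its siNC mean, and the median over the members of cluster 6 was then 0.024, -0.0091 and 0.027 in the siNC libraries and 0.32, 0.37 and 0.36 in the siNAT10 libraries. The lowest siNAT10 library of cluster 6 thus lay far above its highest siNC library. Cluster 15 gave 0.018, -0.0088 and 0.010 in siNC and 0.23, 0.18 and 0.21 in siNAT10, again with no overlap. In cluster 13 the siNAT10 values, -0.0038, -0.0027 and 0.0098, fell within the siNC range of -0.028 to 0.019. The medians of small clusters varied more, as in cluster 9, where the siNAT10 libraries gave 0.042, -0.15 and -0.041.

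**Figure D3:**
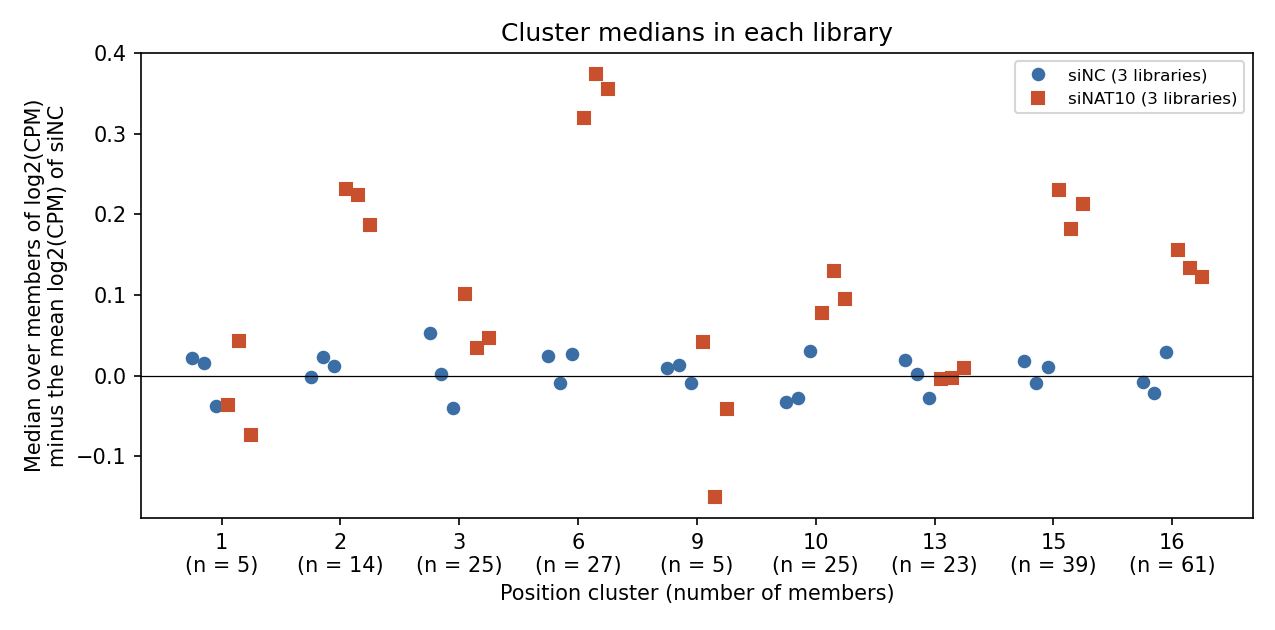
Median over the members of each position cluster (horizontal axis, number of members in brackets) of the log2 CPM minus its siNC mean (vertical axis), 1 point for each library, circles for siNC and squares for siNAT10. In cluster 6 the siNAT10 libraries lie between 0.32 and 0.37 and all siNC libraries are near 0, while in cluster 13 the groups overlap.

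Cluster 6 was thinned by the count rule, which left 27 of its 42 rows as members. The members of cluster 6 that were not called were ZNF101, ZNF93, ZNF90, ZNF486, ZNF714, ZNF730, ZNF724 and ZNF726, named here after their values were seen. They lay on both sides of an unbroken run of 7 higher members, from ZNF431 to ZNF43, and none lay within it. ZNF730, at 0.753 CPM on average, had a log2 fold change as large as many of the rises, 0.71 ± 0.30, and was not called (edgeR adjusted p = 0.0559). Of the other tested genes whose start lies within this span, mostly non-coding, 4 of 20 were higher and none was lower, with a median of 0.07. That share of rises, 20%, was close to the 21.8% of all tested genes.

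ZNF675 had the smallest p of cluster 6. Its protein is known to bind TRAF6 and to restrain the signalling that TRAF6 carries. The gene, at chr19:23525631-23687212 on the minus strand, was at 16.4, 16 and 15.9 CPM in siNC and at 29.6, 28.0 and 28.0 CPM in siNAT10. Every siNAT10 library was well above the siNC range, with a log2 fold change of 0.82 ± 0.06 (SE, edgeR adjusted p = 2.47e-12). ZNF254, the last member of the cluster, was at 18.5, 19.3 and 17 CPM in siNC and at 32.1, 31.3 and 31.4 CPM in siNAT10, a log2 fold change of 0.78 ± 0.06 (edgeR adjusted p = 4.59e-12). ZNF430, in the middle of the cluster, went from 7.65, 6.96 and 8 CPM to 12.3, 11.4 and 12.1 CPM, a log2 fold change of 0.67 ± 0.09 (edgeR adjusted p = 2.79e-07). These 3 genes were named for the size of their rise.

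Cluster 6 also holds a pair of known repressors of retrotransposons. ZNF91, which silences SVA elements and has the longest finger array among the members with 32 fingers, was at 13.0, 13.8 and 13.8 CPM in siNC and at 15.8, 15.4 and 15.1 CPM in siNAT10. The siNAT10 libraries were all higher, by a small step of 0.19 ± 0.07 in log2 (edgeR adjusted p = 0.0273). That call was lost without siNC replicate 1 (adjusted p = 0.109), without siNAT10 replicate 1 (0.0760) or without siNAT10 replicate 2 (0.0529), and DESeq2 gave 0.137. ZNF93, which silences L1 elements, was at 9.93, 10.6 and 10.9 CPM in siNC and at 11, 9.93 and 9.90 CPM in siNAT10. The groups of ZNF93 overlapped, and its log2 fold change was -0.031 ± 0.084.

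The promoters of the members were compared next. RefSeq windows of 300 bases around the gene start (GRCh38.p14) were matched by symbol for 202 of the 232 members, and 194 of these windows overlapped the deposited gene on its strand. For genes with several listed starts, 34 of the 202, the first listed was used. Each cluster of at least 20 windows was searched for the 8-base word, on either strand, whose share of the cluster's windows was furthest above its share of the windows of all 27305 genes, a search made after the fold changes had been seen. For cluster 6 this word was TCCAATCA (TGATTGGA on the other strand), which holds the letters of the textbook CCAAT box. All 24 windows of cluster 6 had it on the gene's strand, compared with 1.61% of all windows. It occurred 37 times in these 24 windows, more than 1 time in 13 of them, and began between 88 and 24 bases before the start.

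The windows below show the word in capitals in the 3 named members of cluster 6 that rose and in ZNF93, which was not called. They are RefSeq sequences on GRCh38.p14, read 5′ to 3′ on the strand of each gene, at chr19:23687163-23687462 (minus strand), chr19:24086937-24087236 (plus strand), chr19:21020407-21020706 (plus strand) and chr19:19900696-19900995 (plus strand). In each of them a copy of the word begins 53 to 58 bases before the start, and the windows resemble each other well beyond it.
ZNF675: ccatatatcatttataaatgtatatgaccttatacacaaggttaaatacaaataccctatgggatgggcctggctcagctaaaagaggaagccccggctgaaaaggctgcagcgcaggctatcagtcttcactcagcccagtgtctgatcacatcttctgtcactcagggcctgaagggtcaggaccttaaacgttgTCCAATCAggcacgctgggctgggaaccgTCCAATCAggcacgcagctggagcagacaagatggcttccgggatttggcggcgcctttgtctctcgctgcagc
ZNF254: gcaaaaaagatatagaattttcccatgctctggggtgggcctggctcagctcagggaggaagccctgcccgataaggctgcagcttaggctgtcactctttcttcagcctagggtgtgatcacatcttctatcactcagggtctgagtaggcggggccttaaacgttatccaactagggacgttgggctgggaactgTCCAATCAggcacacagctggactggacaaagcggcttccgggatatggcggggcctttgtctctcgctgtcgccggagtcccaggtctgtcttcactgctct
ZNF430: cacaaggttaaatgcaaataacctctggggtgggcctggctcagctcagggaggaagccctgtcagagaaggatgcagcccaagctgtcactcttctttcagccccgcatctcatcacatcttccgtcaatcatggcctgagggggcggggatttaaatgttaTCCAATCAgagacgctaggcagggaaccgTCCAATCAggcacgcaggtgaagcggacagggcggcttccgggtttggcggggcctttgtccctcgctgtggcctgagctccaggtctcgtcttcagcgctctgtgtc
ZNF93: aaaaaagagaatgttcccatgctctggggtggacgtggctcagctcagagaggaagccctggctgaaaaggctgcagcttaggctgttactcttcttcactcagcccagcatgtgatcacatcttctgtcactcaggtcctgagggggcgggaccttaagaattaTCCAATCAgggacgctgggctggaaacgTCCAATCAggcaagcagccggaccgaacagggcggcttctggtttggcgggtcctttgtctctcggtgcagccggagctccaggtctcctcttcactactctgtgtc

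Over pairs of windows within cluster 6, the median share of 8-base words held in common was 22.1%. Pairs from different clusters had a median of 1.81%, and pairs within clusters 3 and 16 had 4.90% and 2.47%. Its windows were also poorer in CG pairs, with a median of 10 against 20 over all members with a window and 14 over all genes, and a median GC content of 55.8% against 60.0% and 58.3%. The windows of cluster 13 had a similar GC content of 55.3%, with a median of 19 CG pairs.

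Of the windows of members in other clusters, 21 held the word, 17 of them in cluster 3 and 4 in cluster 1. As no further cluster had it, the word cannot be told apart from the cluster in this comparison. Of these 21 members 2 were higher and 4 lower, with a median log2 fold change of 0.0063, whereas the 157 without it had 48 higher and 14 lower and a median of 0.12. Within cluster 6 all windows had the word, so members with and without it could not be compared. Among ZNF symbols on other chromosomes 7 of 15 with the word were higher and none was lower, and of those without it 63 of 179 were higher and 30 lower. The medians of these lists were 0.14 with the word and 0.078 without it. Among all other tested genes with a window, 41 of 144 with the word were higher and 46 lower, against 2933 and 2889 of 11222 without it. The word of cluster 3 was CCAATCAG, which shares 7 of its 8 bases with that of cluster 6. It was in 86.4% of 22 windows against 4.16% of all, and also in all 24 windows of cluster 6.

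**Figure D4:**
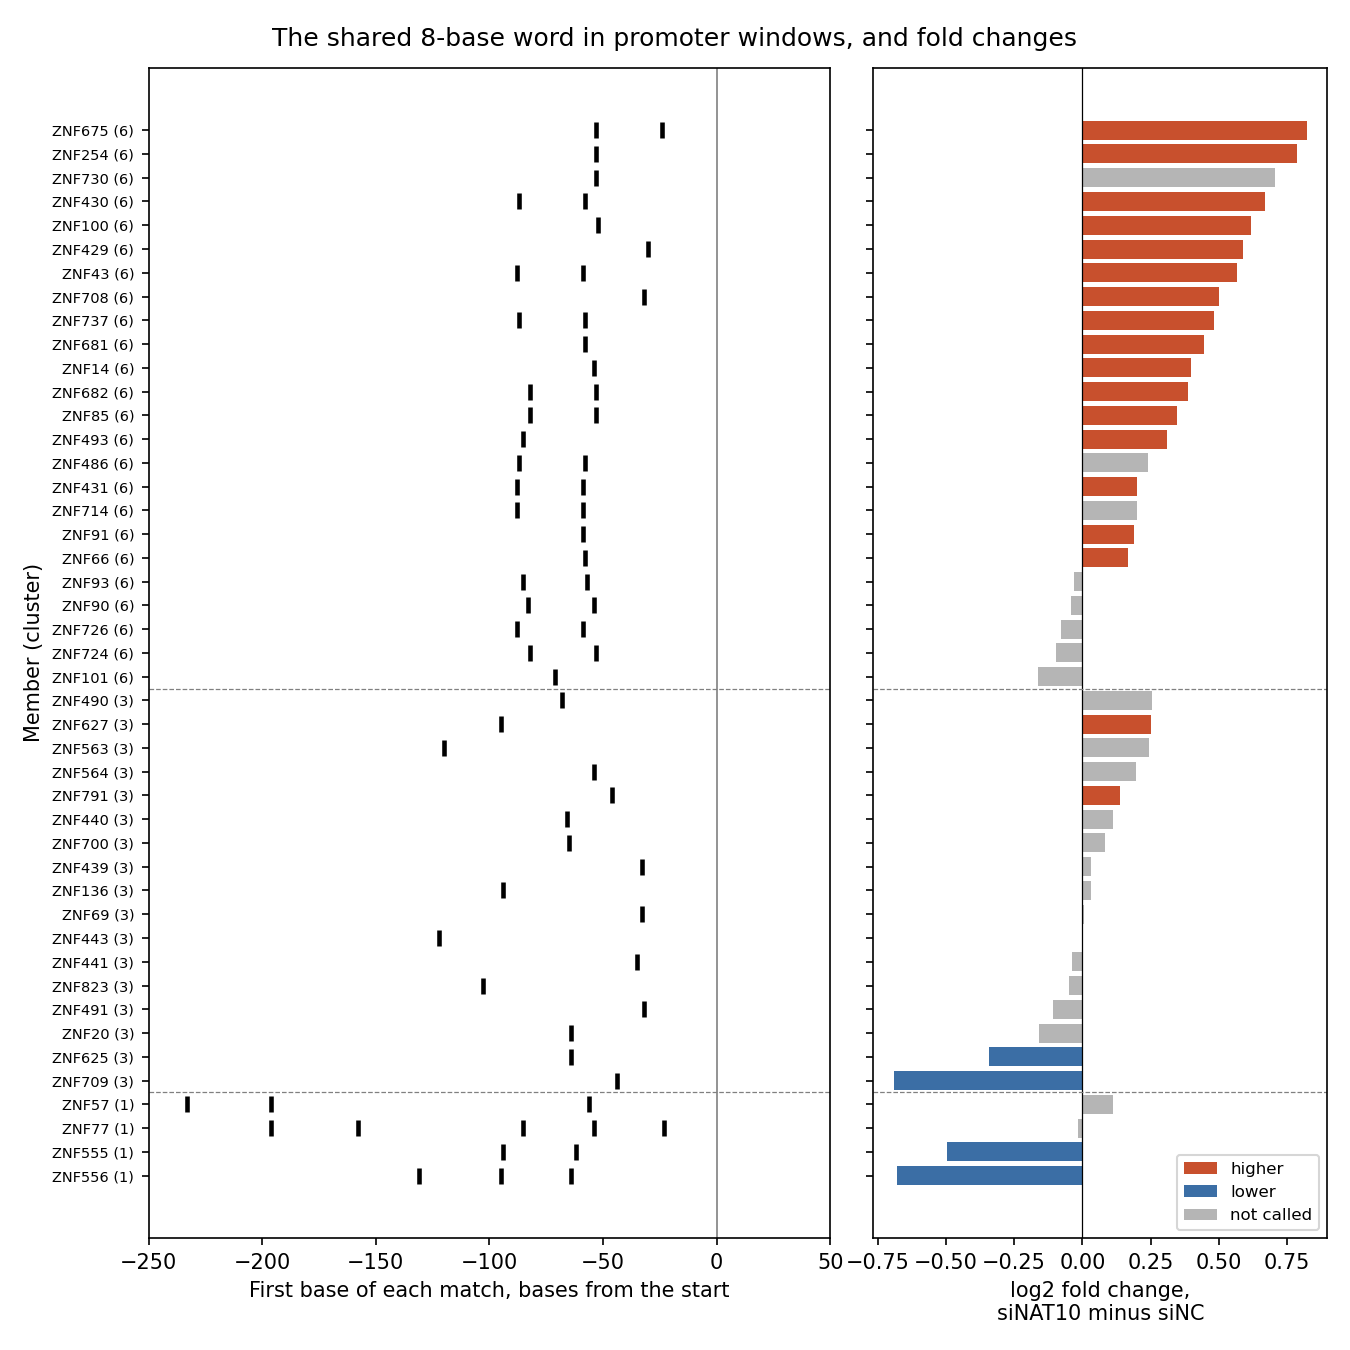
Left, the first base of each match of the word of cluster 6, in bases from the gene start (0), in the windows of the 45 members that hold it, with the cluster in brackets. Right, the log2 fold change of siNAT10 minus siNC of the same member. All 24 windows of cluster 6 hold the word within 88 bases of the start, and 16 of these members were higher, while the 21 members in clusters 1 and 3 had 2 higher and 4 lower.

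ZNF556, in cluster 1, is a member with the word that fell. It was at 2.81, 2.80 and 2.70 CPM in siNC and at 2.04, 1.56 and 1.62 CPM in siNAT10, so the groups were apart at a low level. Its log2 fold change was -0.68 ± 0.17 (edgeR adjusted p = 0.00191). The RefSeq window, on the plus strand at chr19:2867085-2867384 (GRCh38.p14), holds the word 3 times, in capitals.
ZNF556: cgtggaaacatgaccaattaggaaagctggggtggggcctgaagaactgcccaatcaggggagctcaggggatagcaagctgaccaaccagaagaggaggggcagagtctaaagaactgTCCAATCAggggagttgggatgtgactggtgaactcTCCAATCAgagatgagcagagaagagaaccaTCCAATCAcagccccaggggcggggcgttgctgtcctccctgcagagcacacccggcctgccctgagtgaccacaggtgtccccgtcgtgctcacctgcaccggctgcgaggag

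The word found for cluster 16 was ACTTCCGG (CCGGAAGT on the other strand), in 48.1% of its 54 windows and 4.44% of all windows. Of the 26 members of cluster 16 with it, 13 were higher and 1 was lower, with a median log2 fold change of 0.17. The 28 members without it had 4 higher and 3 lower and a median of 0.12. In members of other clusters the word went with 3 higher and 3 lower of 16 and a median of 0.03, against 46 higher and 11 lower of 132 without it and a median of 0.14. Of ZNF symbols with it on other chromosomes 12 of 30 were higher and 2 lower, and of those without it 58 of 164 were higher and 28 lower. Of all other tested genes 275 of 930 with the word were higher and 216 lower, against 2699 and 2719 of 10436 without it. The words of clusters 10 and 15, TTCCCAGA and CCCAGGCC, were in 50% of 24 and 55.2% of 29 windows, against 2.86% and 6.18% of all. The word TTCCCAGA was also in 14 of the 19 windows of cluster 13. In cluster 15 the members with and without its word had medians of 0.20 and 0.25. A match of letters is a description of these windows only.

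ZNF793 in cluster 10, which 2 rows overlap on the other strand, had the largest rise of all members. It was at 9.72, 9.72 and 10.5 CPM in siNC and at 17.1, 17.6 and 19.3 CPM in siNAT10. The lowest siNAT10 library was well above every siNC library, and the log2 fold change was 0.85 ± 0.08 (edgeR adjusted p = 2.34e-10). ZNF875, formerly called HKR1 and 4 members before it in the same cluster, was at 12.3, 15.3 and 14.7 CPM in siNC and at 24.7, 24.3 and 22.6 CPM in siNAT10, a log2 fold change of 0.75 ± 0.07 (edgeR adjusted p = 7.17e-10). Most of the other members of cluster 10 stayed uncalled beside these large steps, 17 of 25 in all.

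ZNF616 had the smallest p of cluster 15. It was at 9.51, 11 and 10.6 CPM in siNC and at 18.9, 16.1 and 19.3 CPM in siNAT10, a log2 fold change of 0.80 ± 0.08 (edgeR adjusted p = 2.8e-09). ZNF350, also called ZBRK1, is a partner of BRCA1 that represses the damage response gene GADD45A. ZNF350 was at 5.84, 6.40 and 5.97 CPM in siNC and at 8.12, 10.1 and 9.78 CPM in siNAT10. The log2 fold change was 0.62 ± 0.10 (edgeR adjusted p = 1.08e-05).

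Other members named from cluster 15 moved less. ZNF649 was at 16.9, 17.7 and 17.1 CPM in siNC and at 20.4, 21.0 and 21.5 CPM in siNAT10, a log2 fold change of 0.29 ± 0.06 (edgeR adjusted p = 0.000312). ZNF331, a gene with imprinted transcripts, was at 26.7, 27.9 and 28.1 CPM in siNC and at 33.2, 31.3 and 28.5 CPM in siNAT10. One siNAT10 library of ZNF331 lay just above the siNC range, and its call (0.16 ± 0.06, edgeR adjusted p = 0.0191) was lost without siNC replicate 1 (adjusted p = 0.0940), without siNAT10 replicate 1 (0.126) or without siNAT10 replicate 2 (0.0603). ZNF175, known for repressing the HIV promoter in macrophages, had a log2 fold change of -0.11 ± 0.08 (edgeR adjusted p = 0.286).

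In cluster 16 the smallest p belonged to ZNF542P, a transcribed pseudogene that the table lists in 2 overlapping rows of the same strand. The longer row, ENSG00000290720, was at 21.8, 22.1 and 21.5 CPM in siNC and at 32.5, 34.0 and 34.7 CPM in siNAT10, and the shorter, ENSG00000240225, at 17, 17.2 and 16.8 CPM and at 24.5, 25.7 and 25.1 CPM. Both rows rose, by log2 fold changes of 0.63 ± 0.05 and 0.56 ± 0.06 (edgeR adjusted p = 7.23e-11 and 5.41e-09). They may count parts of the same transcripts and are not independent. The shorter row had a mean of 16.1 RPKM, 1 of the 4 highest among the members.

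ZNF587 and ZNF587B are neighbours in cluster 16 that share part of their sequence. ZNF587B was at 15.6, 14.7 and 16.8 CPM in siNC and at 23.2, 23.2 and 25 CPM in siNAT10, a log2 fold change of 0.60 ± 0.06 (edgeR adjusted p = 9.04e-09). ZNF587, a repressor of HERV-K elements, was at 44.1, 42.9 and 40.5 CPM in siNC and at 47.1, 48.4 and 45.9 CPM in siNAT10, a smaller step of 0.15 ± 0.05 (edgeR adjusted p = 0.00979) whose call was lost without siNC replicate 3 (adjusted p = 0.0862), without siNAT10 replicate 2 (0.0501) and in DESeq2 (0.0534). Of the 100-base windows of their transcripts, 12.4% in ZNF587 and 22.9% in ZNF587B also occur in another gene, so reads could be split between copies. In the pair ZNF585A and ZNF585B of cluster 10, ZNF585B had 3 to 10 counts in each library and fell under the count rule. ZNF585A had a log2 fold change of 0.20 ± 0.12 (edgeR adjusted p = 0.168), which was 0.08 without siNAT10 replicate 2, its highest library at 7.14 CPM.

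ZNF274 in cluster 16 is known for binding the 3′ ends of zinc finger genes of this family and bringing SETDB1 to them. It was at 50.8, 49.8 and 48.8 CPM in siNC and at 54.3, 51.0 and 53.9 CPM in siNAT10. Its libraries did not overlap between groups, but the step of 0.09 ± 0.04 did not pass (edgeR adjusted p = 0.0883). It passed with library sizes left unscaled (adjusted p = 0.0164) and without siNAT10 replicate 2 (0.0470). ZNF304, known for recruiting silencing factors in RAS-driven cancer cells, was between 19.2 and 21.5 CPM in all libraries, with overlapping groups and a log2 fold change of 0.04 ± 0.06.

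The lower members were scattered, with no cluster of 5 or more members giving more than 4 of them. ZNF792 in cluster 9 had the largest fall by the naming rule and is weakly expressed, at 1.96, 2.48 and 1.87 CPM in siNC and at 1.57, 0.869 and 1.46 CPM in siNAT10. Its libraries kept apart by a narrow margin, and its log2 fold change of -0.70 ± 0.22 (edgeR adjusted p = 0.00994) lost its call without siNC replicate 2 (adjusted p = 0.0762), without siNAT10 replicate 2 (0.0839) and in DESeq2 (0.0532). ZNF709 in cluster 3 was at 4.25, 4.53 and 4.98 CPM in siNC and at 2.42, 3.02 and 3.04 CPM in siNAT10, a log2 fold change of -0.69 ± 0.14 (edgeR adjusted p = 0.000148). The value for ZNF709 is uncertain, as 91.9% of its transcript windows occur in another annotated gene and 2 rows overlap it on its strand.

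ZNF780A, in the small cluster 11, was at 18.1, 16 and 15.6 CPM in siNC and at 11, 10.2 and 13.3 CPM in siNAT10. The fall was clear in each siNAT10 library, with a log2 fold change of -0.51 ± 0.09 (edgeR adjusted p = 1.28e-05). Of the 3 members of cluster 11, 2 were lower and none was higher. In cluster 13, ZNF283 was at 7.81, 8.55 and 7.37 CPM in siNC and at 5.75, 5.12 and 5.56 CPM in siNAT10, a log2 fold change of -0.53 ± 0.10 (edgeR adjusted p = 9.84e-05). ZNF221, from the same cluster, was at 4.41, 4.39 and 4.26 CPM and at 3.18, 2.79 and 3.63 CPM, and its log2 fold change of -0.43 ± 0.13 (edgeR adjusted p = 0.00971) lost its call without siNAT10 replicate 2 (adjusted p = 0.0611) and in DESeq2 (0.0613).

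Cluster 1, with 1 member higher and 2 lower, held ZNF555 beside ZNF556, and both fell. ZNF554, on the other side of ZNF555, was the higher member, at a log2 fold change of 0.44. ZNF555 was at 6.85, 6.73 and 6.39 CPM in siNC and at 4.56, 4.76 and 4.81 CPM in siNAT10, a log2 fold change of -0.50 ± 0.11 (edgeR adjusted p = 0.000366). Its own promoter window holds the word of cluster 6 as well. ZNF460 in cluster 16 was at 6.48, 6.49 and 7.17 CPM in siNC and at 4.94, 4.85 and 4.89 CPM in siNAT10, a log2 fold change of -0.45 ± 0.11 (edgeR adjusted p = 0.000902).

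**Figure D5:**
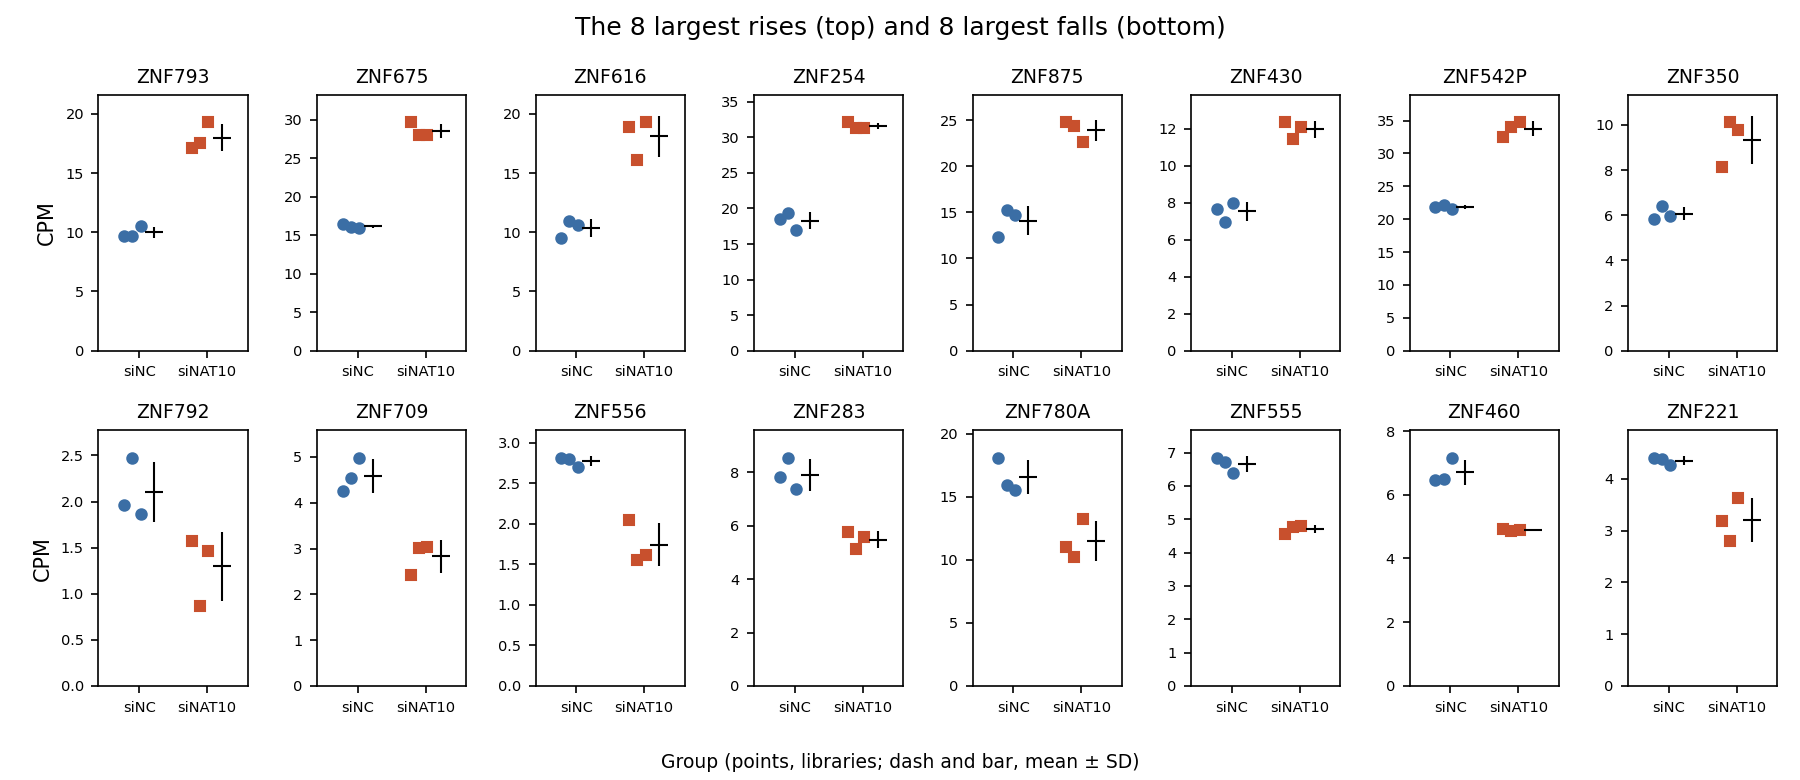
CPM (vertical axes, each from 0) of the 8 largest rises and the 8 largest falls by the naming rule, with 1 point for each of the 3 siNC and 3 siNAT10 libraries and a dash with a bar for the mean ± SD. The panel of ZNF542P is the row ENSG00000290720. The naming rule took only members whose groups do not overlap, and the largest step up is that of ZNF793 at a log2 fold change of 0.85.

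Of the 4 most abundant members per length, the shorter row of ZNF542P had the largest step, given above, and the others had smaller ones. ZNF146, a protein made almost only of zinc fingers and without a KRAB domain, had the highest level, a mean of 48.1 RPKM, and was at 191, 186 and 195 CPM in siNC and at 209, 205 and 209 CPM in siNAT10. The groups were apart but close, with a log2 fold change of 0.12 ± 0.03 (edgeR adjusted p = 0.00309). ZNF580, at 16.3 RPKM, was at 45.1, 45.8 and 46.3 CPM in siNC and at 41.7, 38.6 and 37.5 CPM in siNAT10 and fell by 0.22 ± 0.05 in log2 (edgeR adjusted p = 0.000325). ZNF428, at 14.6 RPKM, overlapped between groups and had a log2 fold change of 0.05 ± 0.06 (edgeR adjusted p = 0.539).

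Close to ZNF146 in cluster 10, ZNF260 is also built of zinc fingers alone. It was at 35.3, 36.7 and 36.6 CPM in siNC and at 41.8, 41.4 and 43.2 CPM in siNAT10, a log2 fold change of 0.22 ± 0.05 (edgeR adjusted p = 0.00026). ZNF568, whose mouse counterpart silences a placental promoter of Igf2 in the embryo, ran from 8.23 to 9.71 CPM in siNC and from 8.60 to 9.59 CPM in siNAT10, with overlapping groups and a fold change of 0.02 ± 0.09. ZNF224 in cluster 13, a repressor of the aldolase A gene, was likewise level, at 48.7, 48.1 and 50.6 CPM in siNC and at 51.2, 49.5 and 49.5 CPM in siNAT10.

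ZNF317 had the smallest p of cluster 2 and was at 44.8, 43.2 and 46.1 CPM in siNC and at 64.4, 61.4 and 62.7 CPM in siNAT10. All siNAT10 libraries were higher, by 0.49 ± 0.04 in log2 (edgeR adjusted p = 1.99e-10). ZNF317 overlaps no other row of the table, and none of its transcript windows occurs in another gene. ZNF229 had the smallest p of cluster 13 and was the single member called higher there, at 27.2, 27.7 and 26.6 CPM in siNC and at 35.8, 33.8 and 34.3 CPM in siNAT10, a log2 fold change of 0.35 ± 0.05 (edgeR adjusted p = 1.45e-06).

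The fold changes were set beside features of the genes themselves. In GENCODE 29, 225 members are protein coding and 6 are transcribed pseudogenes, and the coding members had a median of 12 zinc fingers in their longest annotated reading frame. A KRAB signature, a pattern that misses divergent domains and shorter isoforms, was found in 188 coding members. Of these, 69 (36.7%) were higher and 14 (7.45%) lower, with a median log2 fold change of 0.14. The 37 coding members without the signature had 7 higher (18.9%) and 5 lower (13.5%) and a median of 0.12. Over all tested genes 21.8% were higher and 22.3% lower. Across the 225 coding members, which share libraries and sequence and are not independent, Spearman's rho of the fold change was -0.0196 with the number of fingers, -0.0660 with transcript GC content, -0.0438 with transcript length and 0.0473 with mean CPM. The largest in size was -0.130, with the share of transcript windows found in another gene.

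Many members overlap other rows or share sequence, and whether the counting used the strand is not stated. On the same strand 102 members overlap another row and on the other strand 120 do, and 64 overlap none. Members with an overlap on the other strand had 51 higher and 8 lower, with a median of 0.18. The 64 members free of overlap had 19 higher and 6 lower and a smaller median of 0.09, with 29.7% of them higher. Fold changes of these 64 ran from -0.70 to 0.51. Each of the 8 largest rises named above overlaps another row on at least 1 strand. Among the 8 largest falls, ZNF792, ZNF283 and ZNF221 overlap none. The part of overlap in these rises and falls was not tested. Of the 49 members with over 5% of their 100-base transcript windows in another gene, 8 were higher and 4 lower, with a median of 0.09, and the 182 with less had 69 higher and 15 lower and a median of 0.15. Thus 16.3% of the members with more shared sequence were higher and 37.9% of those with less.

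The genes through which KRAB zinc finger proteins act were measured beside them. Of 32 such genes 9 were higher, 8 were lower and 15 were not called (edgeR), beside 21.8% higher and 22.3% lower over all tested genes, and their median log2 fold change was 0.03. The corepressor TRIM28 (-0.043 ± 0.033, adjusted p = 0.319) and the methyltransferase SETDB1 (0.07 ± 0.05, adjusted p = 0.306) were not called and overlapped between groups. Of the deacetylases, HDAC1 rose by 0.53 ± 0.03 and HDAC2 fell by 0.12 ± 0.03. Of the heterochromatin proteins that bind methylated histones, CBX3 fell by 0.34 ± 0.03 and CBX5 by 0.13 ± 0.03, and CBX1 had a value of 0.02 ± 0.03.

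Among the other rises, EHMT1 (0.40 ± 0.05) and SUV39H2 (0.34 ± 0.06) are histone methyltransferases, ATF7IP (0.21 ± 0.05) protects SETDB1, and DNMT1 (0.15 ± 0.03) keeps DNA methylation. TRIM24 (0.43 ± 0.06) is a relative of TRIM28, and ATRX (0.30 ± 0.05), SMARCAD1 (0.27 ± 0.04) and MORC3 (0.21 ± 0.04) act on silent chromatin. Genes that fell also included the TRIM28 relative TRIM33 (-0.24 ± 0.05), the histone chaperone DAXX (-0.15 ± 0.04) and UHRF1 (-0.14 ± 0.03), which guides DNMT1. Each value is a log2 fold change ± SE.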

How the data were processed

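RNA of Cisplatin-treated HK-2 cells was sequenced as stranded mRNA libraries with molecular identifiers, 3 for siNC and 3 for siNAT10, and grouped by the sample labels. The deposited values are raw read counts per gene made by the authors, with gene positions and lengths. The submitters' processing notes name Trimmomatic 0.36, STAR 2.5.3a, featureCounts of Subread 1.5.1, edgeR 3.12.1 and the build GRCh38. The study's methods say that the kit adds identifiers for correcting duplicates. Whether the counted reads were merged by them, counted by strand or counted when mapping to several places is not given in the sources used here, and copies left unmerged would each add a count. The positions of the 231 members found in GENCODE 29 by identifier overlapped those given there. No column of per-sample values was left out (0 unused).

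The analysis ran in R 4.3.3 and used edgeR 4.0.16. Genes were filtered by filterByExpr (minimum count 10, minimum total 15), which kept 19874 genes, library sizes were scaled by TMM, and siNAT10 was compared with siNC by the quasi-likelihood test with no term for the replicate number. Adjusted p-values are over all tested genes, and each standard error is the fold change over the root of F. With 3 libraries a side, exact permutation reaches 0.1 at the lowest, and every p here therefore leans on spread pooled over genes. Library pairs within groups gave a chi-square per gene of 1.64 to 2.34, where pure counting noise would give 1. DESeq2 1.42.0, limma 3.58.1, other scalings, filters, member sets and cluster gaps were tried.

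Named genes were NAT10, the 8 largest rises and 8 largest falls among called members of at least 1 CPM whose groups did not overlap, the 4 highest in RPKM, the smallest p in each cluster of at least 5 members, 12 members of known role, 2 pairs of near copies, and from the KRAB list most called genes with TRIM28, SETDB1 and CBX1. Genes named beyond this rule were picked after their values were seen. The members and lists were chosen with earlier results of these data known. Promoter windows and their 8-base words were read from a RefSeq table. Zinc fingers and KRAB signatures were counted in GENCODE 29 reading frames, and shared sequence as 100-base windows of a member's transcript found in another GENCODE 29 gene.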

Additional observations from a re-analysis of the deposited data

How the results depend on the processing

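The excess of higher over lower members held in direction under every scaling, filter, tool and left-out library tried. Higher members numbered 58 and lower members 13 in DESeq2, 78 and 18 in limma-voom, and 92 and 17 with library size only. Leaving out each library in turn gave 66 to 76 higher members, 15 to 20 lower, 0 to 1 past both limits, and a median log2 fold change of 0.12 to 0.14. With library size only the median of the members moved to 0.17 and that of all genes to 0.044. Among the 64 members that overlap no other row it was 0.094, with 19 higher and 6 lower. Without cluster 6, an alternative chosen after seeing the data, it was 0.12, with 59 higher and 19 lower. Members with little shared sequence, also chosen after seeing the data, gave 69 higher and 15 lower. The cause of these shifts was not tested.

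With the replicate number as a block (replicate block), 77 members were higher and 18 lower. Same-numbered libraries did not deviate together over 19874 genes (r = -0.0423, 0.0106 and -0.143), and the highest r, 0.147, joined siNC 3 and siNAT10 1. The labels do not say whether same-numbered samples were handled together, and these values cannot decide it.

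A gap of 500000 bases gave 20 clusters and 1 of 2000000 bases gave 10, both leaving cluster 6 at a median of 0.37. Its median ran from 0.30 to 0.41 without 1 library. Clusters 1 and 9 turned positive with library size only (0.019 each). The larger gap merged cluster 13 with clusters 11 and 12, and the median of the merged group was -0.0026. Cluster 13 itself ran from -0.028 to 0.035 without 1 library. Values near 0 changed sign for ZNF93 with library size only (0.0066) and, without 1 library, for ZNF568 (-0.034 to 0.079) and ZNF428 (-0.0074 to 0.11). Without 1 library the log2 fold change of ZNF175 ran from -0.165 to -0.062 and that of ZNF304 from 0.0028 to 0.078. Members under 1 CPM were too shallow for firm calls.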

Other observations

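Of 37 tested zinc finger symbols of chromosome 19 that the symbol pattern leaves out, 3 were higher and 5 were lower, where 21.8% and 22.3% of all tested genes were. Their median log2 fold change was 0.05, and they were not tested against the members. The list also takes in antisense, divergent and joined transcripts named after zinc finger genes, such as ZNF529-AS1, ZNF584-DT and ZNF625-ZNF20. Most of its called rows are of these kinds, so its counts do not describe further zinc finger genes alone. ZSCAN5A, a zinc finger gene with a SCAN domain, was at 2.18, 2.24 and 1.92 CPM in siNC and at 3.61, 3.61 and 3.51 CPM in siNAT10, a log2 fold change of 0.75 ± 0.15 (edgeR adjusted p = 0.000163). ZNF584-DT, a divergent transcript beside a zinc finger gene, was at 14.3, 14.0 and 13.8 CPM in siNC and at 9.21, 9.56 and 10.5 CPM in siNAT10, a log2 fold change of -0.52 ± 0.08 (edgeR adjusted p = 3.32e-06). Both were picked after their values were seen.

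Of 230 genes of other kinds within the spans of the zinc finger clusters, 32 (13.9%) were higher and 35 (15.2%) lower. Their median log2 fold change was 0.03. Their median level was 3.61 CPM against 10.9 CPM for the members. Within the span of cluster 6 the called ones were 4 rows, all higher, which is 20% of the 20 tested there beside 21.8% of all tested genes. The smallest p was that of ENSG00000213976 at 2.36 CPM, with a log2 fold change of 0.83 ± 0.17 (edgeR adjusted p = 0.000138). LINC01224, at 0.522 CPM, had the largest change of the 4, 1.08 ± 0.36 in log2 (edgeR adjusted p = 0.0156).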
